A study of Mus musculus with 6 samples.

Results

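Matrix metalloproteinases (MMPs) and tissue inhibitors of metalloproteinases (TIMPs) were examined in MICT1 KO cells of a brown preadipocyte line. The 10 genes, chosen by symbol, were Mmp2, Mmp3, Mmp9, Mmp11, Mmp13, Mmp14, Mmp19, Timp1, Timp2 and Timp3. All 10 were among the 13283 genes of the expression table. The cells were a single immortalized line of mouse brown preadipocytes (BAT cells) that stably expressed Cas9, with 3 libraries of total RNA from cultures given scrambled sgRNA (Scr, labelled WT) and 3 from cultures given sgRNA against MICT1 (MICT1 KO). MICT1 is a microprotein enriched in brown adipocytes. The KO cells were transduced pools sorted for GFP, not single clones, and the labels do not say which of the sgRNAs each library received. Every culture was given the treatment for brown adipocyte differentiation and, on day 6, was exposed to 10 µM forskolin, an activator of adenylyl cyclase, for 6 h.

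MMPs are zinc-dependent endopeptidases that cut collagens, laminins, fibronectin and proteoglycans outside the cell. Most are secreted as proenzymes and gain activity when their propeptide is removed, while Mmp14 is held in the plasma membrane. TIMPs bind the active site of MMPs and block it, so the enzymes and their inhibitors are usually read together. In adipose tissue they take part in remodelling of the matrix around preadipocytes and growing adipocytes, and Mmp14 is known for cutting the fibrillar collagen that surrounds adipocytes.

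The values are a normalized signal, estimated reads divided by a factor for the depth of each library, and are called values here. Read totals recovered from them ranged from 15445878 to 17925629 per library. Groups were compared with limma-trend on log2(value + 1) over the 12507 genes that reached 10 in 3 or more libraries, and all 10 MMP and TIMP genes passed this filter. Called genes are those with an adjusted p under 0.05 (Benjamini-Hochberg over all genes tested), and fold changes are on that same log2(value + 1) scale, where changes of low genes come out too small. Nothing says how the 3 cultures of a group were kept apart beyond the statement that replicates are biological, so the p-values measure the spread between these cultures. The KO labels were not checked on their target, since MICT1 expression was not analysed here. Of 10 brown adipocyte markers 9 were in the table and all 9 were called lower in MICT1 KO, against 28.3% of all genes. Their summed values were 121629 to 145001 in Scr and 14518 to 20937 in MICT1 KO libraries. Lpl (mean 55039 in Scr and 10184 in MICT1 KO) and Fabp4 (53343 and 5461) had the largest parts of these sums. Ucp1 was low in both groups, at 20.8 to 30.5 in Scr and 1.05 to 9.33 in MICT1 KO libraries. In bulk RNA, fewer cells of a type and less RNA per cell cannot be told apart, and the part of these lower marker levels in the results was not tested.

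Most of the protease genes and all of the inhibitor genes were higher without MICT1. Of the 10 genes, 8 were called higher in MICT1 KO cells, 5 of the 7 MMPs and 3 of the 3 TIMPs, and Mmp19 and Mmp9 were called lower. All 10 were thus called, where 56.9% of all genes tested were called in either direction, 28.5% higher and 28.3% lower. At least 2-fold higher were 5 genes (Mmp3, Mmp13, Timp1, Timp3 and Mmp11), against 7.99% of all genes, and at least 2-fold lower were 2, against 5.76%. The median log2 fold change was 1.05 over the 10 genes and -0.0053 over all genes tested. No MICT1 KO value overlapped the Scr values in 9 of the 10 genes, as in 62% of all genes. MICT1 KO was above in 8 (30.9% of all) and below in Mmp19 (31.2% of all), and only Mmp9 overlapped.

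**Figure D1:**
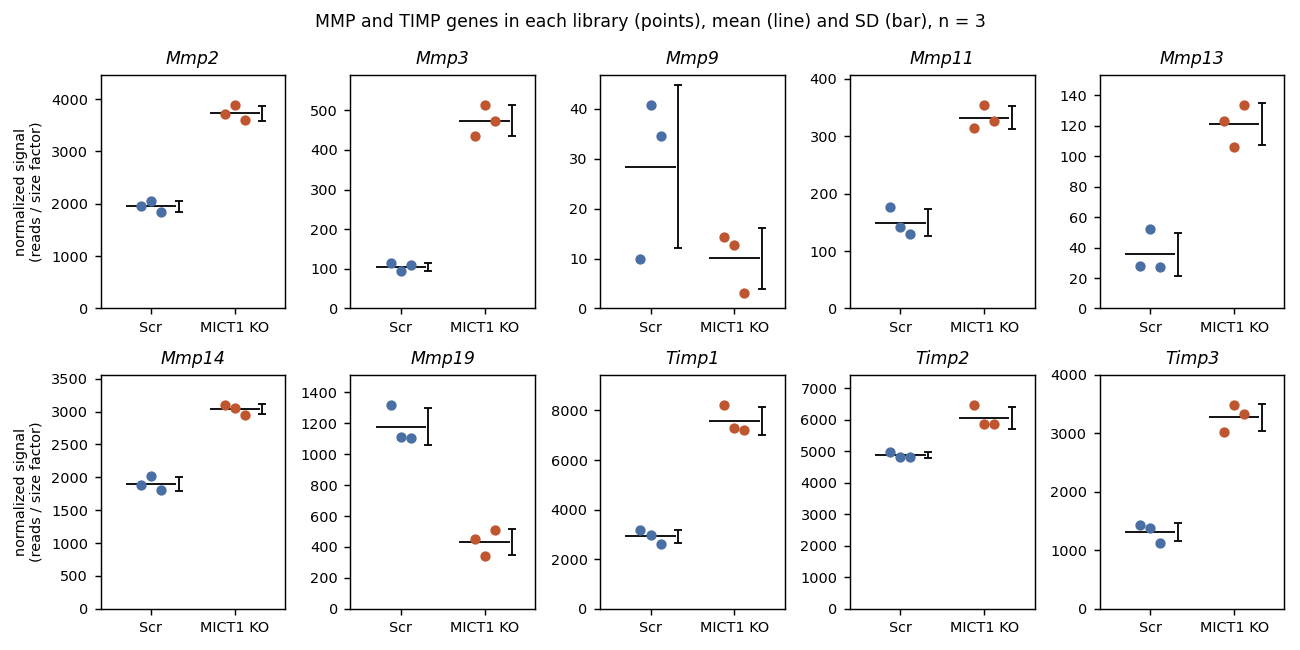
Normalized signal (vertical axis, reads divided by a size factor, from 0) of the 10 genes in the 3 Scr and 3 MICT1 KO libraries, each point a library, with the mean as a line and the SD as a bar. The groups are separated in every panel except that of Mmp9, whose values are all under 41.

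**Figure D2:**
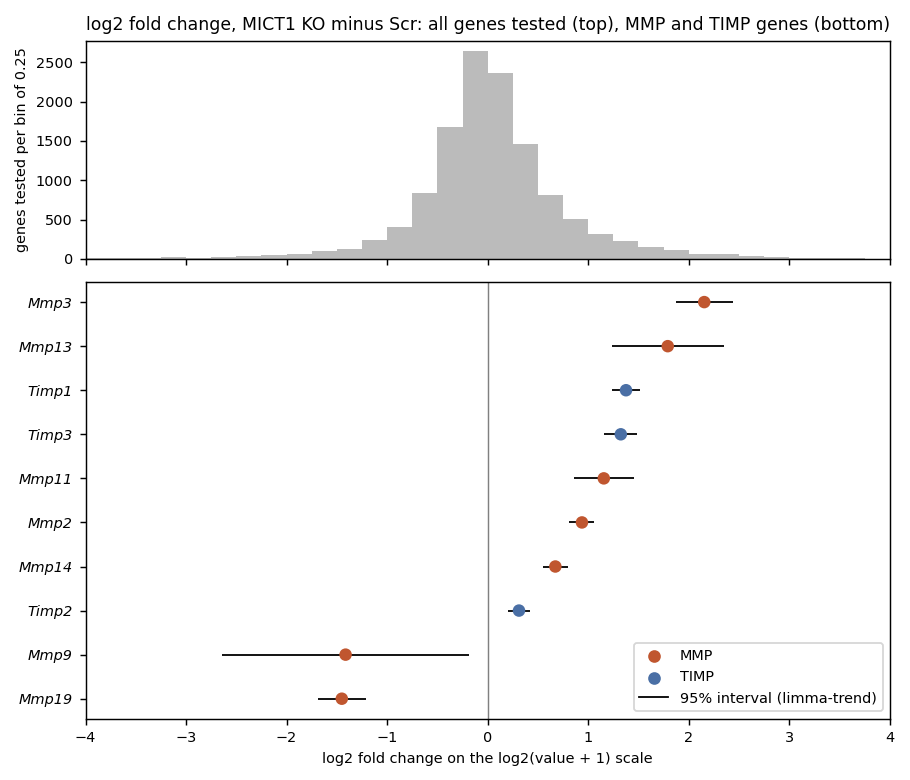
The upper panel counts all 12507 genes tested by log2 fold change, MICT1 KO minus Scr, in bins of 0.25 (39 genes below -4 and 14 above 4 are outside the axis). Below it each MMP (orange) and TIMP (blue) is a point with its 95% interval from limma-trend, running from Mmp19 at -1.45 to Mmp3 at 2.15.

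Mmp14, the membrane enzyme that activates pro-Mmp2, had values of 1880.3, 2022 and 1809 in Scr against 3096, 3057 and 2951 in MICT1 KO libraries. Every KO culture exceeded every Scr culture, and the mean went from 1904 ± 108 to 3034 ± 74.8 (SD, n = 3 each). Its log2 fold change was 0.67 (SE 0.060, limma-trend adjusted p = 5.18e-09). Mmp14 spans chromosome 14 from 54431598 to 54442456 on the plus strand (GRCm38.p6, as are all positions here).

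Mmp2 (gelatinase A), which cleaves denatured collagen and basement membrane collagen, lies on chromosome 8 from 92827290 to 92853421. The Scr libraries held 1950.5, 2052 and 1844 and the MICT1 KO libraries 3714, 3887 and 3599.9. These groups were far apart relative to their spread, with means of 1949 ± 104 and 3734 ± 144 (SD, n = 3 each) and a log2 fold change of 0.94 (SE 0.060, limma-trend adjusted p = 2.38e-11).

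Timp2 both inhibits MMPs and forms the bridge by which Mmp14 captures pro-Mmp2. It had the smallest change of the 10 genes, from 4986, 4825 and 4835 in Scr to 6461, 5861 and 5875 in MICT1 KO libraries, with no overlap. The log2 fold change was 0.31 (SE 0.055, limma-trend adjusted p = 5.56e-05), or 1.24-fold. On a per-length scale (RPKM, reads per kilobase of merged exons, scaled to library depth), Timp2 stayed above both enzymes in every library. The log2 ratio of Mmp2 to Timp2 was between -1.18 and -1.02 in Scr and between -0.59 and -0.38 in MICT1 KO libraries, and that of Mmp14 to Timp2 was between -2.03 and -1.87 and between -1.67 and -1.55. All KO ratios were thus nearer to 0 than all Scr ratios. The ratios depend on the length used. With the longest transcript in place of merged exons, the mean log2 ratio of Mmp14 to Timp2 was -1.16 in Scr and -0.80 in MICT1 KO.

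Mmp3 (stromelysin-1), which cuts proteoglycans, fibronectin and laminin and activates other proenzymes, rose most. Its values were 114, 94.6 and 109 in Scr against 435, 513 and 474 in MICT1 KO libraries, a rise from 106 ± 9.98 to 474 ± 39.2 (SD, n = 3 each). The lowest KO culture was well above the highest Scr culture. The log2 fold change was 2.15 (SE 0.14, limma-trend adjusted p = 2.44e-11), or 4.45-fold.

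Mmp13 (collagenase-3), an interstitial collagenase of rodents, was a lower-level gene that moved the same way. It had 27.7, 51.9 and 27.5 in Scr against 123, 106 and 134 in MICT1 KO libraries, which correspond to 28, 56 and 27 reads against 129, 101 and 129. Scr replicate 2 stood above the other Scr cultures but below every KO culture. The log2 fold change was 1.79 (SE 0.27, limma-trend adjusted p = 8.11e-06), and without that replicate it was 2.09.

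Mmp3 and Mmp13 lie in the same MMP cluster of chromosome 9, Mmp13 from 7272514 to 7283333 and Mmp3 from 7445822 to 7455975, both on the plus strand. Between Mmp3 and the next measured gene of the cluster, Mmp10 (stromelysin-2, 7502342 to 7510242), lies Mmp1a. Mmp10 had values of 0.989, 1.85 and 2.04 in Scr against 5.72, 20.02 and 12.4 in MICT1 KO libraries, too low for the filter and not tested. The 7 genes of the cluster in RefSeq apart from these were not analysed here.

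Mmp3 and Mmp13 also shared promoter motifs. RefSeq promoter windows of 300 bases, 250 before the annotated start and 50 after it, were found for 7 of the 10 genes (not for Mmp2, Mmp9 and Mmp19) and searched on both strands. The motifs were the AP-1 element TGAGTCA, the CRE TGACGTCA, the TATA box TATAAA and the GC box GGGCGG, chosen with the expression values known. AP-1 dimers of Fos and Jun proteins are textbook activators of the stromelysin and collagenase genes. The 90 bases before the start are shown for Mmp3 (chr9:7445732-7445821) and Mmp13 (chr9:7272424-7272513), the genes that rose most, with motif matches in capitals.
Mmp3: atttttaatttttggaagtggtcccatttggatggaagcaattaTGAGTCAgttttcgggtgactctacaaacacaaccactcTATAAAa
Mmp13: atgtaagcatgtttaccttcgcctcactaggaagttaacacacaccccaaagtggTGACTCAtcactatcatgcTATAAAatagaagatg
In both windows an AP-1 element preceded a TATA box, at -46 to -40 and -7 to -2 in Mmp3 and at -35 to -29, on the minus strand, and -16 to -11 in Mmp13, counted from the annotated start. Of all 32851 promoter windows, 5.20% held the AP-1 letters and 13.6% the TATA box, and 3.52% and 7.21% of the 10578 windows of genes in the expression table did. A match is a string of letters and not an observed binding site.

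The windows of Mmp11, Mmp14, Timp1, Timp2 and Timp3 held neither of these motifs and at least 1 GC box, the letters read by Sp1-type factors, which 35.7% of all windows and 64.6% of those of genes in the table held. A GC box in 5 of 7 windows is thus near the share of the measured genes. No window of the 7 held the CRE, which 1.79% of all windows and 3.26% of those of genes in the table held. For contrast with the pair above, the same 90 bases follow for Mmp14 (chr14:54431508-54431597), Timp1 (chrX:20870076-20870165) and Timp3 (chr10:86300322-86300411), all on the plus strand and with the GC boxes in capitals.
Mmp14: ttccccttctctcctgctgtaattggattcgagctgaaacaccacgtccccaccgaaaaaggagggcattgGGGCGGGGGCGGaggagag
Timp1: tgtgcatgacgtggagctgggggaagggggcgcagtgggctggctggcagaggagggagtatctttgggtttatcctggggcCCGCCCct
Timp3: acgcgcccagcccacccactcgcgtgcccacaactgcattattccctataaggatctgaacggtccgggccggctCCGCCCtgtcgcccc
The capitals of Mmp14 are adjoining GC boxes, and those of Timp1 and Timp3 are the reverse complement. The bases just after the annotated start occurred in an annotated transcript of the gene for every window except that of Mmp14. The Mmp14 window was thus not checked in this way.

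**Figure D3:**
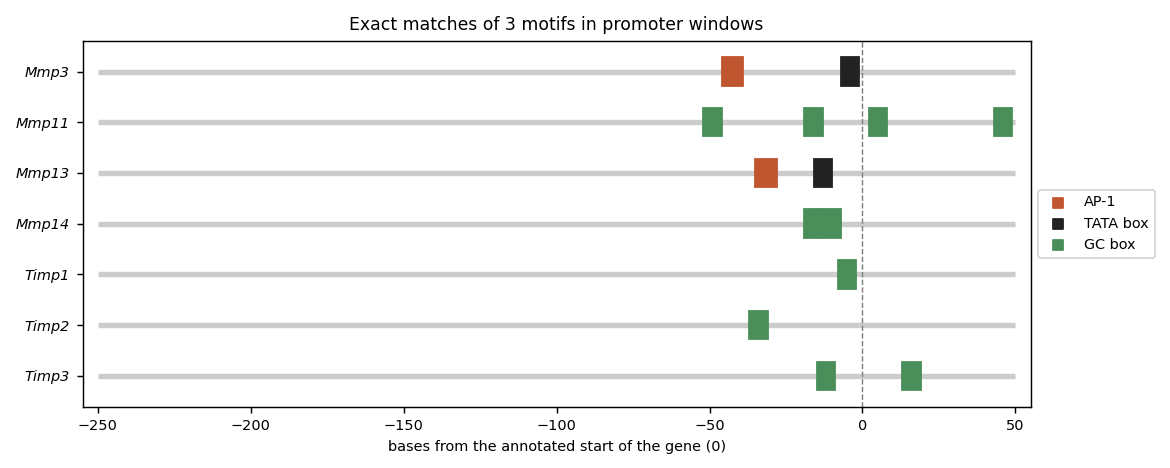
Matches of the AP-1 element (orange), TATA box (black) and GC box (green) in the promoter windows of 7 genes, placed by distance in bases from the annotated start. Mmp3 and Mmp13 have 1 AP-1 element and 1 TATA box each, and the other 5 genes have GC boxes.

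Mmp11 (stromelysin-3), known from stromal fibroblasts and as an enzyme that furin activates inside the cell, also rose. Values were 176, 142 and 130.3 in Scr against 315, 354 and 327 in MICT1 KO libraries, with no overlap and a log2 fold change of 1.16 (SE 0.14, limma-trend adjusted p = 6.83e-07). The gene (chromosome 10, 75923221 to 75932502, minus strand) shares 155 exon bases with Chchd10 on the opposite strand. Chchd10 moved the other way, from 673 ± 50.7 in Scr to 175 ± 36.8 in MICT1 KO (SD, n = 3 each). Whether the counting used strand is not given in the sources used here, so reads of overlapping genes may not have been told apart.

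Mmp19, an MMP that cleaves basement membrane components, was lower in MICT1 KO, unlike most of the MMPs. It was high in Scr, at 1316, 1111 and 1108, and low in MICT1 KO libraries, at 449, 344 and 510.3. The mean fell from 1178 ± 119 to 435 ± 84.0 (SD, n = 3 each), a log2 fold change of -1.45 (SE 0.11, limma-trend adjusted p = 7.00e-10). Mmp19 (chromosome 10, 128790910 to 128800827) shares 789 exon bases with Tmem198b on the opposite strand and 212 with the antisense gene Gm47093, and its recovered reads were fractional in every library, from 326.75 to 1330.64. Tmem198b itself was at 118 ± 6.57 in Scr and 133 ± 25.3 in MICT1 KO (SD, n = 3 each, log2 fold change 0.16, limma-trend adjusted p = 0.488), and its groups overlapped.

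Mmp9 (gelatinase B, chromosome 2, 164940326 to 164955850) had the lowest level of the 10 genes. The Scr libraries had values of 9.89, 40.8 and 34.6 and the MICT1 KO libraries 14.3, 12.6 and 3.11, that is 10, 44 and 34 reads against 15, 12 and 3. Scr replicate 1 lay below 2 of the KO cultures, so the groups overlapped. The log2 fold change was -1.41 (95% interval -2.64 to -0.18, limma-trend adjusted p = 0.0468). This call was lost without Scr replicate 2 (-1.05, adjusted p = 0.227), Scr replicate 3 (-1.17, adjusted p = 0.173) or KO replicate 3 (-0.81, adjusted p = 0.219), and in 2 other scalings, and the log2 fold change reached -2.02 without Scr replicate 1. Of 6 neutrophil markers, cells known for Mmp9, only S100a8 was in the table, at values of 7.12 to 20.8 in Scr and 2.07 to 10.5 in MICT1 KO libraries. It was not tested, and the other 5 were not analysed here.

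Timp1, a secreted inhibitor of most MMPs, was the most abundant of the 10 genes and stood at rank 75 of 13142 genes by mean RPKM. Its values were 3162, 2974 and 2628 in Scr against 8208, 7295 and 7229 in MICT1 KO libraries, and even the lowest KO value was far above the highest Scr value. The mean rose from 2921 ± 271 to 7577 ± 547 (SD, n = 3 each), a log2 fold change of 1.38 (SE 0.067, limma-trend adjusted p = 2.78e-13). Timp1 (chromosome X, 20870166 to 20874737) lies within Syn1, which is on the opposite strand and shares no exon base with it.

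Timp3, which stays bound to the matrix and also inhibits ADAM and ADAMTS proteases, rose by nearly as much. The values of 1425, 1386 and 1127 in Scr against 3027, 3480.1 and 3326 in MICT1 KO libraries did not overlap. The log2 fold change was 1.32 (SE 0.079, limma-trend adjusted p = 7.71e-12). Timp3 (chromosome 10, 86300412 to 86349505) lies within Syn3 on the opposite strand and shares 1733 exon bases with it, and Syn3 was not analysed here. Relative to Timp2 on the RPKM scale, Timp1 had a log2 ratio of 1.25 to 1.48 in Scr and 2.43 to 2.48 in MICT1 KO libraries, and Timp3 of -3.16 to -2.86 and -2.16 to -1.82. Against Timp2, both other inhibitors were higher in each KO culture than in any Scr culture. With the longest transcript in place of merged exons, the mean log2 ratio of Timp3 to Timp2 was -2.25 in Scr and -1.24 in MICT1 KO.

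Per length, inhibitor transcripts outweighed MMP transcripts in every library. Summed RPKM of the 7 MMPs was 87.3, 84.1 and 78.8 in Scr against 131, 136 and 132 in MICT1 KO libraries, and that of the 3 TIMPs was 311, 286 and 265 against 686, 624 and 619. The ratio of the TIMP to the MMP sum was 3.44 ± 0.11 in Scr and 4.84 ± 0.35 in MICT1 KO (SD, n = 3 each), and all KO ratios were above all Scr ratios. Timp1 made up 69.9% ± 1.46 of the TIMP sum in Scr and 81.3% ± 0.60 in MICT1 KO (SD, n = 3 each), and Timp2 26.7% ± 1.65 and 14.8% ± 0.14. These sums describe chosen genes, and no test was made of them.

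The makeup of the MMP sum moved from Mmp19 toward Mmp2 and Mmp3. Mmp19 held 24.4% ± 2.0 of it in Scr and 5.68% ± 1.2 in MICT1 KO (SD, n = 3 each). Mmp2 went from 42.4% ± 1.22 to 51.0% ± 1.03 and Mmp3 from 4.31% ± 0.49 to 12.1% ± 0.83, whereas Mmp14 was at 23.4% ± 0.93 and 23.5% ± 0.57. By mean RPKM the order in Scr was Timp1 (201), Timp2 (76.6), Mmp2 (35.3), Mmp19 (20.4), Mmp14 (19.5), Timp3 (9.85), Mmp3 (3.59), Mmp11 (3.29), Mmp13 (0.81) and Mmp9 (0.49). The ranges of Mmp19 and Mmp14, of Mmp3 and Mmp11, and of Mmp13 and Mmp9 overlapped there. In MICT1 KO the order was Timp1 (523), Timp2 (95.4), Mmp2 (67.9), Mmp14 (31.2), Timp3 (24.7), Mmp3 (16.1), Mmp19 (7.54), Mmp11 (7.32), Mmp13 (2.77) and Mmp9 (0.17), and only Mmp19 and Mmp11 overlapped as neighbours. The order and the shares depend on the length used. With the longest transcript in place of merged exons, Mmp14 was above Mmp19 in every Scr library too (log2 ratio of Mmp19 to Mmp14 from -0.94 to -0.59). The mean Mmp14 share was then 34.3% in Scr and 34.3% in MICT1 KO.

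**Figure D4:**
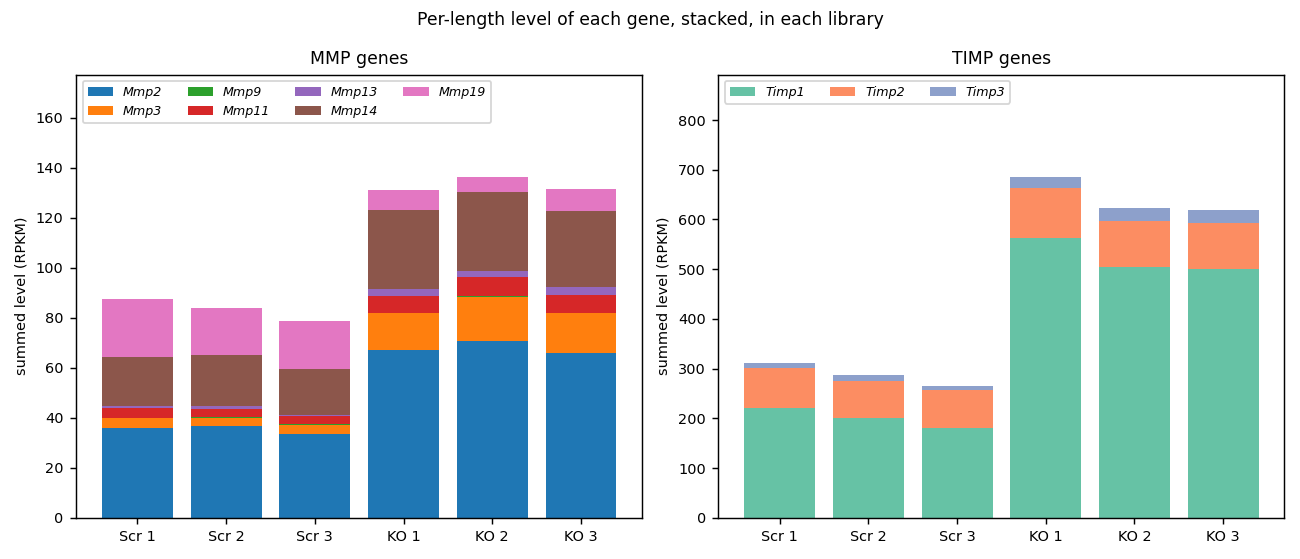
Level per length (RPKM, vertical axes from 0) of each MMP (left) and TIMP (right), stacked for each of the 6 libraries. The MMP stack is 78.8 to 87.3 in Scr and 131 to 136 in MICT1 KO, with a thinner Mmp19 layer and thicker Mmp2 and Mmp3 layers, and Timp1 fills most of the TIMP stack.

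Of 17 further MMP and TIMP genes 5 were in the table and 4 were tested. Only Mmp15, a membrane-type MMP like Mmp14, was called, at 30.7, 20.4 and 20.4 in Scr against 87.7, 112 and 125 in MICT1 KO libraries. The KO values were all above the Scr values, with a log2 fold change of 2.15 (SE 0.28, limma-trend adjusted p = 1.24e-06). Mmp17 had a log2 fold change of 0.67 (limma-trend adjusted p = 0.0566), overlapping, which passed in 4 alternative settings. Mmp23 (0.015, adjusted p = 0.965) and Mmp28 (-0.061, adjusted p = 0.807) were not called by limma-trend, and their groups overlapped.

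The related ADAM and ADAMTS proteases shed surface proteins and cut proteoglycans. Of 10 ADAM genes tested, 4 were called higher and 2 lower, with a median log2 fold change of 0.077, and the 6 called are near the share of all genes (56.9%). Adam9 changed most among them without overlap, from 2044 ± 36.3 to 3220 ± 97.8 (SD, n = 3 each, log2 fold change 0.66, limma-trend adjusted p = 3.10e-09). Of 15 ADAMTS and ADAMTS-like genes, 10 were called higher and 3 lower (28.5% and 28.3% of all genes), with a median of 0.57. Adamts5 (2.06) and Adamts6 (1.27) and the procollagen peptidase gene Adamts2 (1.74) had the largest rises, and Adamts15 (-2.20) and Adamts12 (-1.92) fell. All these were log2 fold changes, with adjusted p of at most 0.000484 by limma-trend. Adamts5 was a low gene, at 6.11 to 9.89 in Scr and 29.6 to 48.5 in MICT1 KO libraries. It reached the filter only through its KO values. The remaining lower call, Adamtsl2 (-2.03, limma-trend adjusted p = 0.0271), was also low and its groups overlapped. Its values were 10.2 to 20.4 in Scr and 0.95 to 10.4 in MICT1 KO libraries. With a filter at 4 RPKM the ADAMTS counts were 4 higher and 0 lower, since fewer genes were tested. Without Scr replicate 2 or KO replicate 3 the ADAM genes called higher were 2.

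Genes that activate, induce, inhibit or clear MMPs were mostly higher. Of 17 tested, 15 were called higher and 1 lower, where 28.5% and 28.3% of all genes were, and the median log2 fold change was 0.79. Plau, the urokinase that generates plasmin and so starts MMP activation, went from 90.01, 114 and 99.7 in Scr to 849, 780 and 681 in MICT1 KO libraries. The KO cultures were far above the Scr cultures, with a log2 fold change of 2.92 (SE 0.13, limma-trend adjusted p = 7.94e-14). Thbs1, whose product binds MMPs and guides their clearance, had a log2 fold change of 2.42 (adjusted p = 3.93e-17). Reck, a membrane-anchored MMP inhibitor, rose from 59.5 ± 27.3 to 281 ± 30.5 (SD, n = 3 each), a log2 fold change of 2.34 (limma-trend adjusted p = 1.69e-07). Furin, the protease that activates Mmp11 and Mmp14, was the exception, with a log2 fold change of -0.16 (limma-trend adjusted p = 0.0105).

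Of 18 tested matrix genes whose products MMPs cut, 7 were called higher and 8 lower, with a median log2 fold change of 0.0057. All genes divided as evenly, 28.5% higher and 28.3% lower. Dcn (decorin, 4.75), Fn1 (fibronectin, 1.91) and Col1a1 (0.77) rose, and the basement membrane genes Lama4 (-4.10) and Col4a1 (-1.42) and the microfibril gene Col6a3 (-1.64) fell. These were log2 fold changes with adjusted p of at most 7.05e-10 by limma-trend, and no group overlapped.

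Of 15 AP-1 and ETS factors tested, the families whose elements are known from MMP promoters, 9 were called higher and 4 lower (28.5% and 28.3% of all genes), with a median log2 fold change of 0.53. Fos had values of 767, 730 and 445 in Scr against 1504, 1443 and 1519 in MICT1 KO libraries, and Junb 5599, 5980.0 and 5054 against 13180.2, 12531 and 12800.4. For both genes the KO cultures were all higher, with log2 fold changes of 1.24 (limma-trend adjusted p = 7.11e-08) and 1.21 (limma-trend adjusted p = 2.80e-13). Etv4 rose by more (2.01, adjusted p = 2.93e-05), from a mean of 19.8 to 78.5. Jun (0.83) and Jund (0.95) were also called higher, but the other Fos family genes were called lower. Fosl1 fell from a mean of 19006 to 11133, by 0.77 on the log2 scale (limma-trend adjusted p = 2.06e-09). Fosl2 fell from 9864 to 7827 (-0.33), and Fosb from 394 to 237 (-0.67) with overlapping groups. Fosl1 and Fosl2 had higher values than Fos in every library. Batf3 had a log2 fold change of -0.90 (adjusted p = 0.0380), and its call was lost in 5 of the 6 fits that left out a library (adjusted p up to 0.104 from limma-trend).

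**Figure D5:**
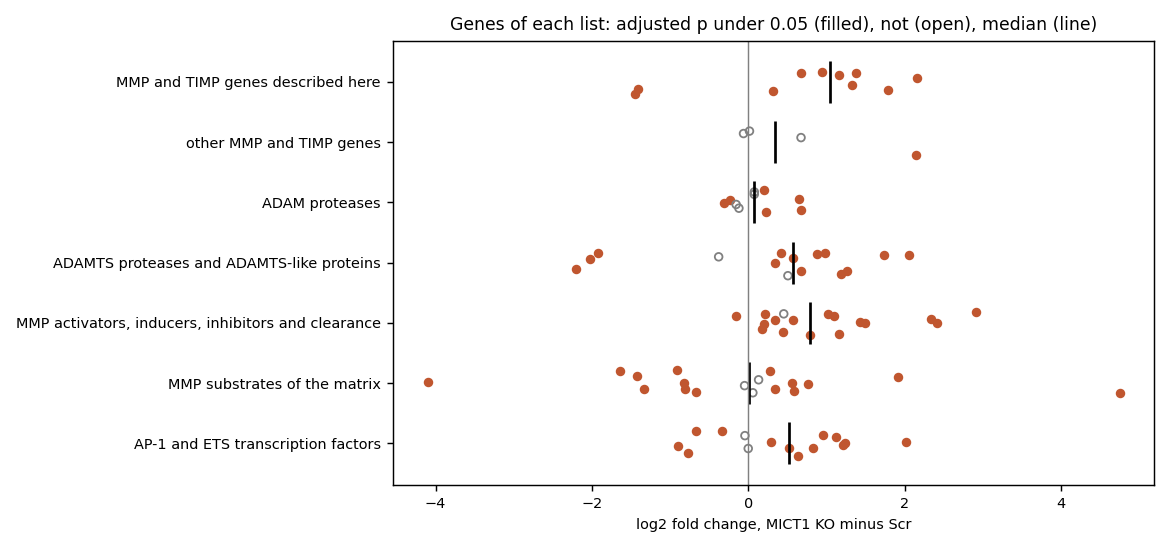
Log2 fold change, MICT1 KO minus Scr (horizontal axis), of each tested gene in the MMP and TIMP set and in 6 lists of related genes, filled where the adjusted p was under 0.05 and open otherwise, with the median as a line. Genes of MMP regulation, a list that also holds procollagen processing genes, lie mostly above 0 (median 0.79), whereas MMP substrates spread from -4.10 to 4.75.

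Mmp3 had the largest change of the 10 genes, so its profile over the 6 libraries was compared with that of every gene in the table. After centring on the log2(value + 1) scale, the closest genes by root-mean-square difference were Trim15 (0.11), Car12 (0.11) and Cdh6 (0.13). Trim15 was a low gene, with values of 5.56 to 7.91 in Scr and 25.7 to 32.7 in MICT1 KO libraries. Car12 was at 311 to 365 and 1506 to 1799.6, and Cdh6 at 86.1 to 108 and 404 to 495. All 3 genes were, like Mmp3, higher in every KO culture than in any Scr culture, as were 30.9% of all genes. For these 3 genes it follows from how they were chosen.

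Markers of other cells that express MMPs were read beside these results. Of 10 progenitor and fibroblast markers 5 were tested, 3 called higher and 2 lower (28.5% and 28.3% of all genes). Summed values over the 8 in the table were 5063 to 5759 in Scr and 5541 to 5922 in MICT1 KO libraries. Within that sum Dlk1, a preadipocyte marker, fell from 687 ± 35.04 to 63.9 ± 23.0 (SD, n = 3 each, log2 fold change -3.47), while Ly6a rose from 288 ± 25.3 to 756 ± 63.3 (1.39). The other lower call, Pdgfra (-0.19, limma-trend adjusted p = 0.0347), overlapped between the groups and was lost with libraries scaled to equal sums or equal upper quartiles and without Scr replicate 1, Scr replicate 2, KO replicate 1 or KO replicate 2, which left 1 lower. Of 10 macrophage and leukocyte markers 4 were tested, and only Cd14 was called, where 56.9% of all genes were. Its log2 fold change was 1.24 (limma-trend adjusted p = 2.44e-06). The summed value of the 4 was 267 to 384 in Scr and 516 to 638 in MICT1 KO libraries. Without the defining markers Ptprc, Adgre1, Itgam, Lyz2, Aif1 and Tyrobp, which were not analysed here, this list does not identify macrophages. Of 6 endothelial markers only Cdh5 was tested, at 5.93 to 12.1 in Scr and 25.9 to 33.4 in MICT1 KO libraries (log2 fold change 1.71, limma-trend adjusted p = 0.00275). Cdh5 was low and reached the filter only through its KO values. All cultures were of a single immortalized line, so these lists describe genes of that line. Their relation to the MMP and TIMP values was not tested.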

How the data were processed

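Total RNA from 3 Scr and 3 MICT1 KO cultures was sequenced as paired-end, strand-specific libraries, according to the methods, with alignment to the mouse build NCBI38/mm10 by Partek software. The submitters' processing notes also name STAR, among other tools. The counting model, its use of strand and the gene annotation are not given in the sources used here. The authors deposited a normalized signal per gene, read from its steps as estimated reads divided by a size factor between 0.949 and 1.08. Between 88.7% and 90.2% of values under 20 were whole reads within 0.01, too few for a count test.

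Values were fitted as log2(value + 1) with limma-trend (limma 3.58.1, R 4.3.3) with group as the only term, a minimum value of 10 in at least 3 libraries, and Benjamini-Hochberg adjustment over 12507 genes. RPKM used merged exons of GENCODE vM21, found for 98.9% of symbols. Positions and promoters are those of RefSeq on GRCm38.p6. On simulated data with 12386 genes tested, 97 of 100 genes changed 2-fold and 100 of 100 changed 4-fold were called, with 3 unchanged genes called. The simulation changed few genes, balanced in direction and none of them low, with the same setting for the spread of every gene. In these data 56.9% of genes were called and some genes were low, so the simulated rates do not carry over. The genes described, the lists and the alternatives were chosen with earlier results of these data known. All 10 genes were named, and from each list up to 3 rises and 3 falls of at least 1.5-fold without overlap, and any single exception in direction. An exact test of 3 against 3 libraries cannot give a p below 0.1.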

Additional observations from a re-analysis of the deposited data

How the results depend on the processing

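The 8 higher calls held under the alternatives tried (other scalings, filters, pseudocounts, limma-voom, the replicate block and each library left out), except that a filter at 4 RPKM left Mmp13 and Mmp9 untested, so that 7 higher genes remained. The count of lower genes, 2, was 1 with libraries scaled to equal sums or to equal upper quartiles and 1 with the filter at 4 RPKM, and 1 to 2 with each library left out, always through Mmp9. Of 138 refitted values of the 10 genes, 133 kept direction and call, 5 (all Mmp9) lost the call and 0 reversed. With the longest transcript as length, the TIMP to MMP ratio was 2.86 in Scr and 3.99 in MICT1 KO, the Mmp2 share 36.9% and 44.4%, and Mmp19 was below Mmp14 in all 6 libraries. The replicate numbers did not pair the cultures (correlations of deviations from -0.0236 to 0.0637 for the same number), and with the replicate block the counts were 8 higher and 2 lower. Among related genes, the ADAM count lower, 2, was 1 with equal upper quartiles, the 4 RPKM filter or without Scr replicate 1, Scr replicate 2 or KO replicate 2, and the other MMP and TIMP count higher, 1, was 2 in 5 settings and 0 at 4 RPKM. Depth limits Mmp9, Mmp10 and Mmp13, which had 1 to 129 reads.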
